A study of Mus musculus with 2 samples.

Results

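The genes of 9 myeloid cytokine receptor chains were followed in single bone marrow cells of the mouse: Csf2ra, Csf2rb, Csf2rb2, Csf3r, Csf1r, Il3ra, Il6ra, Epor and Kit. They were picked by symbol and make up 9 of the 32285 genes in the count matrices. The KO library came from Phf6 knockout bone marrow cells and the WT library from Phf6 wild-type ones. Phf6 encodes a chromatin protein with PHD-type zinc fingers, and the gene is mutated in human leukaemia. Cells of both genotypes had received a vector that carries the RUNX1 mutant S291fs together with GFP, so the WT library is not a library of normal marrow. The GFP+ cells were put into recipient mice, and 8 weeks later GFP+Lin- cells, those with GFP and without the surface proteins of mature lineages, were sorted from the recipients' marrow. Age, strain, number of mice and the way Phf6 was deleted are not given in the sources used here. With 1 library per genotype no test between genotypes was possible. All intervals below are exact 95% intervals for counting error alone and say nothing about the spread between mice.

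Cytokine receptors tell progenitor cells which growth factors they can answer to. Csf2ra and Il3ra are the ligand-binding alpha chains for GM-CSF and interleukin-3, and both signal through the common beta chain encoded by Csf2rb, which also serves the interleukin-5 receptor. The mouse has a further beta chain, encoded by Csf2rb2, which works with the interleukin-3 alpha chain alone. Il6ra binds interleukin-6 and signals through the partner chain Il6st. The receptors for G-CSF (Csf3r) and erythropoietin (Epor) pair with themselves, and all of the chains named so far depend on JAK kinases bound inside the cell. Csf1r and Kit, the receptors for M-CSF and stem cell factor, are instead tyrosine kinases themselves. In marrow, Kit is known as a marker of stem and early progenitor cells, Csf1r of monocytes and macrophages, Csf3r of the neutrophil lineage and Epor of the red cell lineage.

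After filtering, 4709 KO cells and 4478 WT cells were kept, with a median of 21428 and 24800 UMIs per cell (unique molecular identifiers, each standing for a counted RNA molecule) and 110416265 and 118834279 UMIs in all. The libraries shared 10 cell barcodes. Phf6 itself stood at 20.7 counts per 1000000 UMIs (CPM) in KO cells and 41.7 CPM in WT cells, a log2 ratio of -1.01 (interval -1.09 to -0.94). Which part of Phf6 was removed is not stated, so tags from a part that was kept would not check the genotype. Runx1 stood at 1188 CPM in KO cells and 912 CPM in WT cells, and whether reads of the vector are among these was not tested. Cells were clustered without the 9 receptor genes, so that none of them shaped the groups they are described in. Of 22 clusters, 19 held 50 or more cells from each library and were compared. Clusters with enough markers of a class carry a name that ends in "like", and the others keep a number and their leading genes. Although the sort was for lineage-negative cells, clusters with markers of mature lineages were present, among them 50 KO and 67 WT B cell-like cells and 290 KO and 473 WT maturing neutrophil-like cells.

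Over all cells, the beta chain genes Csf2rb and Csf2rb2 were higher in the KO library, Epor was lower, and the other 6 receptors differed by less than 1.5-fold. Csf2rb stood at 73.2 CPM in KO cells (71.6 to 74.8) and 46.2 CPM in WT cells (44.96 to 47.4). Its log2 ratio of KO over WT was 0.67 (0.62 to 0.71), from 8084 KO and 5487 WT UMIs. Csf2rb2 stood at 13.9 CPM in KO cells (13.2 to 14.6) and 6.14 CPM in WT cells (5.71 to 6.61), a log2 ratio of 1.18 (1.05 to 1.31). Epor went the other way, with 8.81 CPM in KO cells (8.27 to 9.38) and 13.6 CPM in WT cells (12.9 to 14.3), a log2 ratio of -0.63 (-0.74 to -0.51).

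A gene was counted as higher or lower at a ratio of 1.5-fold with at least 10 CPM in either library. By that rule 2 of the 9 receptors were higher and 1 was lower, while of all 8777 genes at that level 2.36% were higher and 1.41% were lower. Csf2rb2 reached the minimum in KO cells only and Epor in WT cells only. The calls were the same with no minimum. The call for Csf2rb was lost, at 0.58, with median of ratios scaling, and was 0.19 when the 7 compared classes counted alike. That setting leaves out the unnamed clusters. It gives basophil or mast cell-like cells the weight of any other class, though they held 1.47% of the KO and 1.94% of the WT UMIs. Those cells had 248 CPM of Csf2rb in KO cells and 260 CPM in WT cells. The median log2 ratio of the 9 genes was 0.32, beside 0.06 for all genes. Csf1r stood at 61.3 CPM in KO cells and 43.8 CPM in WT cells (log2 ratio 0.48), and Csf3r at 76.2 CPM in KO cells and 58.0 CPM in WT cells (0.39). Kit stood at 118.9 CPM in KO cells and 95.1 CPM in WT cells (0.32), and Il6ra at 51.1 CPM in KO cells and 41.0 CPM in WT cells (0.32). For these 4 genes the interval lay above 0 but the ratio stayed under 1.5-fold. The alpha chains were closest to an even ratio, with Il3ra at 34.2 CPM in KO cells and 30.9 CPM in WT cells (0.14, interval 0.08 to 0.21), and Csf2ra at 59.5 and 57.6 CPM (0.05, with an interval that reached 0). Csf2ra turned to -0.02 with TMM scaling, which shifted all genes by -0.07.

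The libraries held cells of each kind in different shares, and the ratios over all cells moved with that. Erythroid-like cells made up 2.14% of KO cells and 6.01% of WT cells, maturing neutrophil-like cells 6.16% and 10.6%, and monocyte-like cells 16.99% and 14.4%. Unnamed cluster 1, led by Tox, made up 12.6% of KO cells and 5.09% of WT cells. That cluster gave 21.2% of the Kit UMIs of the KO library and 10.2% of those of the WT library. When the KO levels of the 19 clusters were put together in the WT shares, a calculation added after seeing the data, the log2 ratio was 0.45 for Csf2rb and 0.87 for Csf2rb2. Over the same 19 clusters in their own shares it was 0.61 for Csf2rb and 1.11 for Csf2rb2, so a part of the move comes from the clusters left out. Epor came to 0.18 in the WT shares and -0.45 in their own shares, which is already under 1.5-fold. Csf1r came to 0.07 in the WT shares and 0.42 in their own, and Il6ra to 0.02 and 0.28. With WT levels held fixed and only the shares changed, Epor came to -0.71, Csf1r to 0.39 and Il6ra to 0.26.

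**Figure D1:**
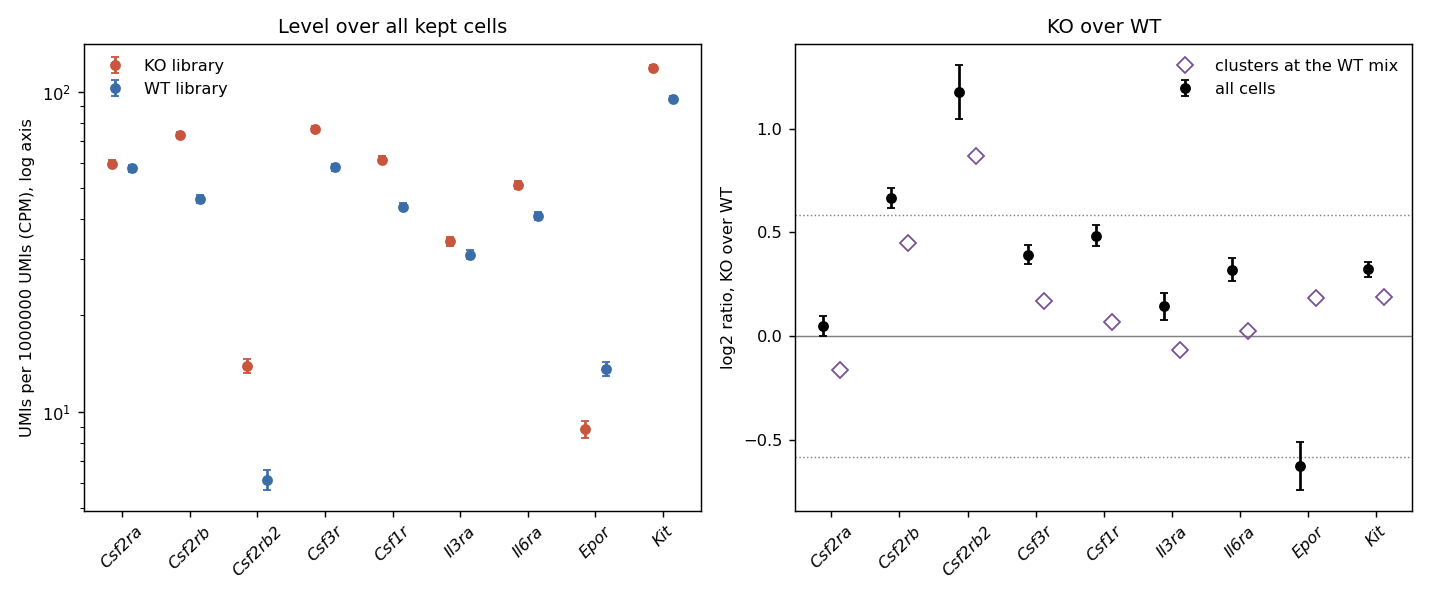
Left, level of each receptor gene over all kept cells of the KO library (red) and the WT library (blue) in CPM on a log axis, with exact 95% Poisson intervals. Right, log2 ratio of KO over WT for all cells (black, with exact interval for counting error) and with KO clusters put together in the WT shares (open diamonds), where dotted lines mark 1.5-fold. Csf2rb and Csf2rb2 lie above the upper line for all cells, and Epor lies under the lower line. The diamonds rest on 19 of the 22 clusters, in which Epor stood at -0.45 in the libraries' own shares and at 0.18 in the WT shares.

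The receptors were highest in different clusters, though some shared a top cluster. Csf1r and Il6ra were highest in cluster 16, led by the complement gene C1qb and by Adgre4, with 623 CPM of Csf1r in KO cells and 759 CPM in WT cells, and 312 and 356 CPM of Il6ra. Next came the 3 monocyte-like clusters, with 143 to 211 CPM of Csf1r in KO cells and 146 to 200 CPM in WT cells. Csf2ra was highest in monocyte-like cluster 11 (leading genes Fn1 and Klra2) at 200 CPM in KO cells (188 to 213) and 237 CPM in WT cells (220 to 253). In KO cells this overlapped cluster 16 at 176 CPM (146 to 210). Csf2rb and Csf2rb2 were highest in the basophil or mast cell-like cluster 13. Epor was highest in megakaryocyte-like cluster 12, and Kit in cluster 1 (led by Tox) and the HSC/MPP-like cluster 3 (led by Mecom).

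**Figure D2:**
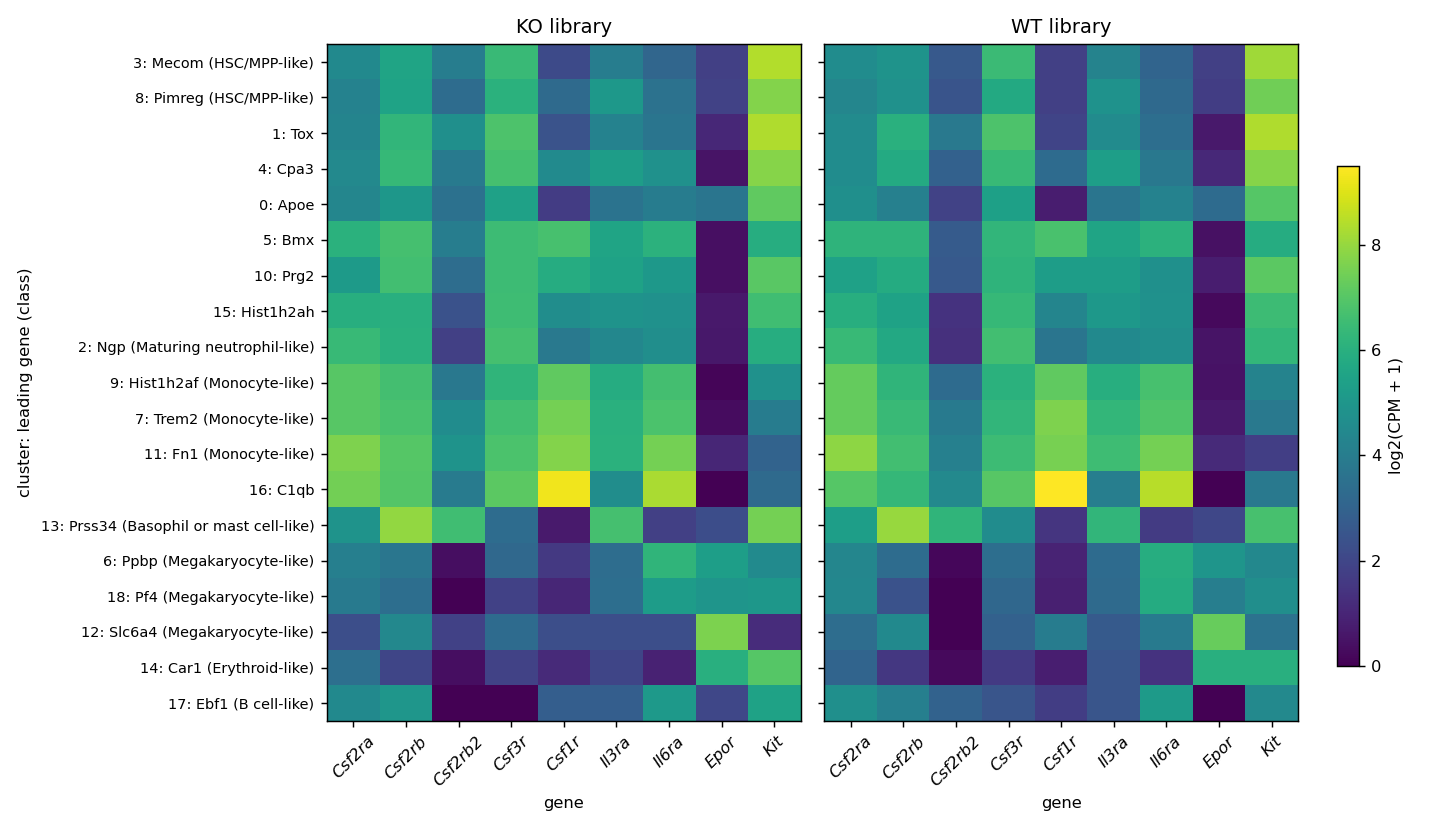
Level of each receptor gene in the 19 clusters of 50 or more cells in each library, as log2(CPM + 1), KO library left and WT library right. Rows are clusters with their leading gene and, where named, their class. Both panels show Csf1r and Il6ra brightest in cluster 16, Csf2rb in cluster 13, Epor in clusters 12 and 14, and Kit in clusters 1 and 3.

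The beta chain genes Csf2rb and Csf2rb2 lie side by side. In the GRCm38 annotation Csf2rb2 (ENSMUSG00000071714) spans chr15:78282507-78305721 on the minus strand and Csf2rb (ENSMUSG00000071713) chr15:78325752-78353847 on the plus strand, 20030 bases apart. Their longest transcripts, of 4740 and 4900 bases, were 90.9% identical over 4679 aligned bases, and 19.0% of the 50-base stretches of Csf2rb2 also occurred in Csf2rb. In the last 500 bases, where 3′ tags mostly fall, identity was 83.1% and none of 451 such stretches was shared. Reads outside that stretch could still have been split between the genes or dropped. Promoters of 7 of the 9 receptor genes were taken from the RefSeq promoter table (GRCm38.p6). The promoter of Csf2rb2, the gene with the largest ratio, is chr15:78305672-78305971 on the minus strand, from 250 bases before the start to 50 after it. Capitals mark GAGGAA, a letter string typical of ETS factor sites, in either orientation.
Csf2rb2 promoter: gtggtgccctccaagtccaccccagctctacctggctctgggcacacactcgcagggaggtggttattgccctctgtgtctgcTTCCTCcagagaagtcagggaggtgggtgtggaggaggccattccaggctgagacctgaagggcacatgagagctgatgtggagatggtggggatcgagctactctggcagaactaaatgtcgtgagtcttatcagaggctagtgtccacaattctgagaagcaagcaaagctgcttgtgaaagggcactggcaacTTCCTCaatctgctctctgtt
It held this string at -167 and +30. The same string occurred on either strand in 28.3% of all 32851 promoters. For comparison, the promoter of Csf2ra, the alpha chain that pairs with Csf2rb and did not share its ratio, is chr19:61228369-61228668 on the minus strand.
Csf2ra promoter: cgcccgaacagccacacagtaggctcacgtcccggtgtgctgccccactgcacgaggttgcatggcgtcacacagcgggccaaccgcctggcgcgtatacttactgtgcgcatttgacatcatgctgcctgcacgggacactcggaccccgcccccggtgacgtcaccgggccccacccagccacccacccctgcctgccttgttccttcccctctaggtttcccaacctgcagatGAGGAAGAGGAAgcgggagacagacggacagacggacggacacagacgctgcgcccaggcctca
Its 2 matches, at -14 and -8, follow each other directly. A match describes letters and not binding.

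Csf2rb was higher in the KO library in most kinds of cell. It reached 10 CPM in 17 of the 19 clusters. The ratio was above 0 in 15 of these, with an interval wholly above 0 in 13 and wholly under 0 in none, and the log2 ratios ran from -0.07 to 0.93 with a median of 0.53. In HSC/MPP-like cells, which resemble stem and multipotent progenitor cells, Csf2rb stood at 45.3 CPM in KO cells (41.8 to 49.1) and 27.7 CPM in WT cells (24.9 to 30.6), a log2 ratio of 0.71 (0.53 to 0.90). Among clusters at 10 CPM the largest ratio was in cluster 0, led by Apoe, with 31.3 CPM in KO cells and 16.5 CPM in WT cells (0.93, interval 0.62 to 1.24). Monocyte-like cells had 109 CPM in KO cells and 82.9 CPM in WT cells (0.39, interval 0.30 to 0.48), and maturing neutrophil-like cells 65.1 and 51.6 CPM (0.34, interval 0.18 to 0.49).

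In the cells with the highest Csf2rb the interval took in 0. Basophil or mast cell-like cells had 248 CPM in KO cells (224 to 274) and 260 CPM in WT cells (240 to 282), and the log2 ratio was -0.07 (-0.25 to 0.12). Phf6 was also close to even in these cells, with 74 KO and 113 WT UMIs, 45.6 CPM in KO cells and 49.0 CPM in WT cells, and a log2 ratio of -0.10 (-0.55 to 0.33) in place of -1.01 over all cells. This holds for each KO over WT value of these cells given below, those of Csf2rb2, Il3ra, Csf3r and Kit included. Below them, monocyte-like cluster 11 and cluster 16 had overlapping intervals in KO cells (117 to 137 and 99.0 to 153 CPM), so their order is not settled by these counts. At the low end were the erythroid-like cells, with 2.18 CPM in KO cells and 1.58 CPM in WT cells.

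Csf2rb2 followed Csf2rb in place, at wider ratios in most clusters. HSC/MPP-like cells had 12.2 CPM in KO cells (10.4 to 14.2) and 4.84 CPM in WT cells (3.74 to 6.18), a log2 ratio of 1.33 (0.91 to 1.77) from 166 KO and 65 WT UMIs. Cluster 0 had 10.5 CPM in KO cells and 2.67 CPM in WT cells (1.98, interval 1.29 to 2.72), and cluster 5, led by Bmx and Serpinf1, 15.5 and 5.65 CPM (1.46, interval 1.00 to 1.93). Monocyte-like cells had 20.2 CPM in KO cells and 12.2 CPM in WT cells (0.72, interval 0.49 to 0.95). In basophil or mast cell-like cells, where the gene was highest, it had 94.2 CPM in KO cells and 73.3 CPM in WT cells (0.36, interval 0.04 to 0.69). Of the 10 clusters in which Csf2rb2 reached 10 CPM, 9 had an interval above 0 and 7 were past 1.5-fold. The exception in direction was cluster 16, with 14.4 CPM in KO cells and 21.2 CPM in WT cells (-0.56, interval -2.05 to 0.98) from 10 KO and 8 WT UMIs, where Csf2rb was at 0.64. In 5 of the 10 the minimum was met in KO cells only, which selects for a high ratio, and of the 5 at 10 CPM in both libraries 3 were past 1.5-fold. With no minimum the ratio was above 0 in 15 of the 16 clusters with UMIs in both libraries. Megakaryocyte-like cells held 4 KO and 1 WT UMIs of the gene in all.

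Csf2rb and Csf3r had an interval above 0 in 0.5 or more of their clusters at 10 CPM. The same held for 4.66% of the 8325 genes that reached 10 CPM in 10 or more clusters. Csf2rb2 met the rule too, but 5 of its 10 clusters reached 10 CPM in KO cells only. The median gene of the 8325 had 19 clusters at that level, so 4.66% is not a like comparison for Csf2rb2. For each 1 UMI of Csf2rb the KO library held 0.190 UMIs of Csf2rb2 and the WT library 0.133. Csf2rb2 thus made up 15.9% of the UMIs of the pair in KO cells (15.2 to 16.7) and 11.7% in WT cells (10.95 to 12.6). The share was 21.2% in KO cells and 14.9% in WT cells of the HSC/MPP-like class, 27.5% and 22.0% in basophil or mast cell-like cells, and 3.70% and 2.76% in maturing neutrophil-like cells. The KO and WT intervals overlapped in each of these 3 classes. They did not overlap in cluster 0, at 25.2% in KO cells (20.3 to 30.5) and 13.9% in WT cells (9.05 to 20.2). Nor did they in cluster 1, at 25.4% (22.5 to 28.5) and 17.3% (13.03 to 22.4), or cluster 5, at 13.2% (11.6 to 15.1) and 7.42% (5.56 to 9.66). In the other compared clusters the intervals overlapped. In cluster 16 the share was 10.4% in KO cells (5.11 to 18.3) and 21.1% in WT cells (9.55 to 37.3).

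Markers of other cell types also differed within the progenitor clusters. In HSC/MPP-like cluster 3, 7 of 9 monocyte markers were higher in KO cells, with a summed level of 141 CPM against 85.5 CPM in WT cells, and 6 of 9 dendritic cell markers were higher, at 548 CPM against 234 CPM. Lymphoid progenitor markers had a wider gap there, with 72.3 CPM in KO cells and 17.03 CPM in WT cells and 4 of 6 higher, among them Dntt at 26.5 CPM in KO cells and 2.31 CPM in WT cells. The sum of that list was also higher in KO cells of clusters 0, 4 and 8, at 14.7, 195.8 and 136.5 CPM in KO cells and 5.10, 76.1 and 37.7 CPM in WT cells. Other lists of cluster 3 went the other way. Of its erythroid markers 8 of 10 were lower in KO cells, at 39.7 CPM against 64.0 CPM in WT cells. Lower too were 7 of 9 neutrophil progenitor, 7 of 8 B cell, 6 of 8 eosinophil and 5 of 6 macrophage markers. The part of these differences in the ratios of Csf2rb and Csf2rb2 was not tested. None of the monocyte markers was at 0 in either library. HSC/MPP markers of the same cluster summed to 7415 CPM in KO cells and 6962 CPM in WT cells, with 4 of 10 higher and 6 lower.

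**Figure D3:**
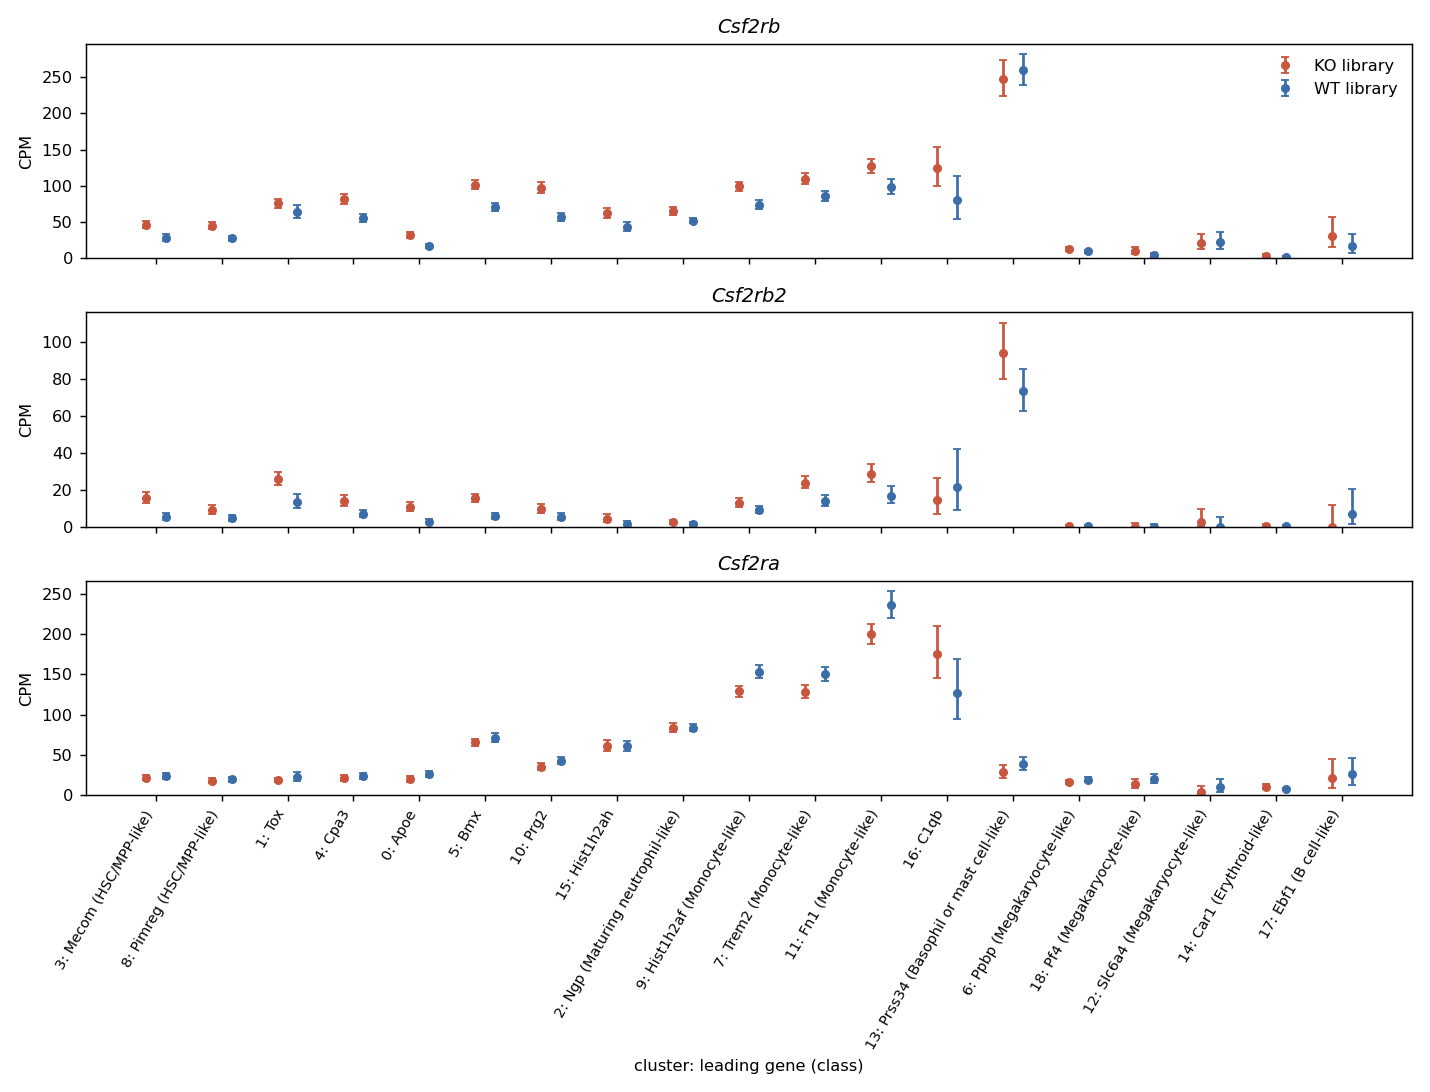
Level of Csf2rb, Csf2rb2 and Csf2ra in CPM (linear axes) in the 19 clusters, KO library in red left of the WT library in blue, with exact 95% Poisson intervals. Csf2rb and Csf2rb2 peak in cluster 13, at 248 and 94.2 CPM in KO cells. Csf2ra peaks in cluster 11, where the KO point (200 CPM) lies under the WT point (237 CPM).

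The alpha chain genes did not move with the beta chain genes. Csf2ra (ENSMUSG00000059326, chr19:61223957-61228429, minus strand) reached 10 CPM in 17 clusters, with a ratio under 0 in 15 of them and an interval wholly under 0 in 5. No cluster was past 1.5-fold in either direction. Monocyte-like cells, which gave 51.0% of its KO UMIs and 45.6% of its WT UMIs, had 144 CPM in KO cells (139 to 149) and 167 CPM in WT cells (162 to 173), a log2 ratio of -0.22 (-0.29 to -0.15). All 3 monocyte-like clusters had it lower, at -0.23, -0.25 and -0.24 for clusters 7, 9 and 11. Maturing neutrophil-like cells had 83.7 CPM in KO cells and 83.8 CPM in WT cells (-0.00, interval -0.13 to 0.13). HSC/MPP-like cells had 19.4 CPM in KO cells and 21.1 CPM in WT cells (-0.12, interval -0.36 to 0.13).

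Il3ra (ENSMUSG00000068758, chr14:14346275-14356011, plus strand) was high in basophil or mast cell-like cells, the lineage in which interleukin-3 is a known growth factor. It had 102 CPM in KO cells (87.2 to 119) and 75.9 CPM in WT cells (65.0 to 88.0) there, a log2 ratio of 0.43 (0.11 to 0.74) beside -0.10 for Phf6. This was the highest cluster in KO cells, while in WT cells cluster 11 stood above it at 92.1 CPM (82.2 to 103) with an overlapping interval. The direction was opposite in monocyte-like cells, with 62.3 CPM in KO cells and 73.0 CPM in WT cells (-0.23, interval -0.34 to -0.12). Within that class cluster 11 had the widest gap, at 66.7 CPM in KO cells and 92.1 CPM in WT cells (-0.47, interval -0.69 to -0.24). In HSC/MPP-like cells the main setting gave an even ratio within counting error (24.1 CPM in KO and 23.7 CPM in WT cells, 0.03, interval -0.20 to 0.25). Under 8 other settings this ratio ran from -0.43 to 0.02 and was under 0 in 7. Of the clusters of that class, cluster 3 had 15.2 CPM in KO cells and 17.9 CPM in WT cells, and cluster 8 had 32.3 and 27.9 CPM. Over the 14 clusters at 10 CPM the ratio was above 0 in 4 and under 0 in 10.

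Il6ra (ENSMUSG00000027947, chr3:89864059-89913196, minus strand) was highest in cluster 16, as given above, and among the named classes of 50 or more cells in each library in the monocyte-like and then the megakaryocyte-like cells. Unnamed cluster 5 stood at 67.4 CPM in KO cells (62.9 to 72.0) and 68.5 CPM in WT cells (63.2 to 74.2). Monocyte-like cells had 121 CPM in KO cells and 124 CPM in WT cells (-0.03, interval -0.11 to 0.05). Megakaryocyte-like cells had 60.4 CPM in KO cells and 55.7 CPM in WT cells (0.12, interval -0.05 to 0.28). Neither class showed a difference beyond counting error. The megakaryocyte-like clusters went apart, with 73.1 CPM in KO cells and 59.5 CPM in WT cells of cluster 6 (0.30, interval 0.11 to 0.48), and 37.5 and 56.4 CPM in cluster 18 (-0.59, interval -1.01 to -0.17). Basophil or mast cell-like and erythroid-like cells had little of it, at 2.46 and 0.65 CPM in KO cells and 2.17 and 1.65 CPM in WT cells.

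Csf3r (ENSMUSG00000028859, chr4:126024550-126044440, plus strand) was spread over most progenitor and myeloid clusters. Outside the megakaryocyte-like, erythroid-like, B cell-like and basophil or mast cell-like clusters, its level lay between 42.8 and 138 CPM in KO cells and between 41.0 and 130 CPM in WT cells. Cluster 16 (138 CPM in KO cells, 112 to 169), cluster 1 (113 CPM, 106 to 120) and cluster 11 (113 CPM, 103 to 122) had overlapping intervals at the top. In monocyte-like cells it had 90.3 CPM in KO cells (86.5 to 94.2) and 73.5 CPM in WT cells (69.6 to 77.5), a log2 ratio of 0.30 (0.20 to 0.40). Maturing neutrophil-like cells, in which G-CSF acts, had 102 CPM in KO cells and 97.0 CPM in WT cells (0.07, interval -0.05 to 0.19). HSC/MPP-like cells had 75.1 CPM in KO cells and 68.1 CPM in WT cells (0.14, interval 0.01 to 0.27). The interval lay above 0 in 8 of 14 clusters and under 0 in 1, the basophil or mast cell-like cluster.

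That exception rested on few UMIs. Basophil or mast cell-like cells held 15 KO and 54 WT UMIs of Csf3r, 9.23 and 23.4 CPM, for a log2 ratio of -1.34 (-2.27 to -0.50) beside -0.10 for Phf6. Of all genes at the minimum in these cells 8.77% were at least 1.5-fold higher and 5.35% at least 1.5-fold lower, so calls were frequent there. The direction turned to 0.13 when cells were put into classes one by one by marker score, and the ratio was -0.43 with doublets kept. The class by marker score was a larger set, with 311 KO and 406 WT cells in place of 122 and 167.

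Epor (ENSMUSG00000006235, chr9:21958897-21963506, minus strand) is a case in which the ratio over all cells and the ratio within cells part. The ratios of Csf1r and Il6ra also fell in the WT shares, as given above. The promoter of Epor, chr9:21963527-21963826 on the minus strand, is shown because the pattern of Epor over the clusters was like that of the GATA factor gene Gata1. Capitals mark the strings AGATAA, typical of GATA factor sites, and TGTGGT, typical of RUNX sites, both of which lie here on the reverse strand and were searched on either strand.
Epor promoter: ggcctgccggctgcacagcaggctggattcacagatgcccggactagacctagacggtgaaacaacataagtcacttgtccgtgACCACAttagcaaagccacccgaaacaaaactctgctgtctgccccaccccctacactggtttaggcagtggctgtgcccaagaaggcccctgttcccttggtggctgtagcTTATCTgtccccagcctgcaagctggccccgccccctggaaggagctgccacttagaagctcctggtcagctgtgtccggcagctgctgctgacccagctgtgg
The GATA string starts at -54 and the RUNX string at -166. Among all 32851 promoters 11.2% held the GATA string and 16.8% the RUNX string. Of the other 6 receptor genes with a promoter taken, Il6ra alone held the GATA string, at -245, and none held the RUNX string. No match says only that these letters were not in this window.

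Epor UMIs came mostly from erythroid-like and megakaryocyte-like cells, which gave 34.3% and 48.9% of the KO total and 67.0% and 23.5% of the WT total. Erythroid-like cells had 72.9 CPM in KO cells (65.3 to 81.1) and 71.3 CPM in WT cells (67.2 to 75.7), a log2 ratio of 0.03 (-0.15 to 0.21). Their level was thus even within counting error, while there were 101 such cells in the KO library and 269 in the WT library. Megakaryocyte-like cells had 49.3 CPM in KO cells (45.002 to 54.0) and 34.7 CPM in WT cells (31.3 to 38.4), a log2 ratio of 0.51 (0.31 to 0.71). The level was highest in megakaryocyte-like cluster 12 (led by Slc6a4 and Tubb1), at 195 CPM in KO cells (165 to 228) and 154 CPM in WT cells (127 to 185). Cells of that cluster had a median of 3931.5 UMIs in the KO library and 2809 in the WT library. Erythroid markers summed there to 601 CPM in KO cells and 289 CPM in WT cells, with 6 of 10 higher, and megakaryocyte markers to 18571 and 12331 CPM, with 8 of 10 higher. The part of these markers in the Epor level was not tested.

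Csf1r (ENSMUSG00000024621, chromosome 18, plus strand) was even in the monocyte-like class as a whole, while its clusters went apart. Monocyte-like cells had 172 CPM in KO cells (167 to 177) and 173 CPM in WT cells (167 to 179), a log2 ratio of -0.01 (-0.08 to 0.06), from 4018 KO and 3228 WT UMIs. Monocyte-like cluster 7 had 184 CPM in KO cells and 199.96 CPM in WT cells (-0.12, interval -0.22 to -0.01), and cluster 11 had 211 CPM in KO cells and 186 CPM in WT cells (0.18, interval 0.03 to 0.32). Cluster 5, led by Bmx, Serpinf1 and Mpo, had 106 CPM in KO cells and 108 CPM in WT cells (-0.04, interval -0.16 to 0.09). Cluster 16 had a ratio of -0.28 (-0.50 to -0.06). The gene Hmgxb3 lies on the opposite strand over part of Csf1r, with 2322 KO and 2163 WT UMIs of its own, and the sources used here do not say whether strand was used in counting. For Il3ra and Il6ra the overlapping antisense genes Gm48860 and Gm42809 held 64 and 39 KO UMIs and 73 and 62 WT UMIs.

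Csf1r passed 1.5-fold upward in clusters 4 and 10, which stood at rank 8 and rank 6 of the 19 clusters for its level. Cluster 4, led by Cpa3 and Flt3, had 22.5 CPM in KO cells (19.1 to 26.3) and 8.95 CPM in WT cells (6.86 to 11.5), a log2 ratio of 1.33 (0.90 to 1.78). Il6ra was also higher in cluster 4, with 27.2 CPM in KO cells and 13.1 CPM in WT cells (1.05, interval 0.68 to 1.42). There 7 of 9 monocyte markers were higher in KO cells, with a sum of 323 CPM against 183 CPM in WT cells, none at 0, while macrophage markers summed to 0.849 and 1.88 CPM. Cluster 10, led by Prg2 and Epx, had 57.3 CPM of Csf1r in KO cells and 37.7 CPM in WT cells (0.61, interval 0.37 to 0.84). In cluster 10 the monocyte markers summed to 957 CPM in KO cells and 649 CPM in WT cells, with 7 of 9 higher. The 8 eosinophil markers were all lower there, at 619 CPM in KO cells against 5561 CPM in WT cells. The part of these markers in the Csf1r and Il6ra ratios was not tested. HSC/MPP-like cells had 84 KO and 33 WT UMIs of Csf1r, 6.16 and 2.46 CPM, both under the minimum.

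Kit (ENSMUSG00000005672, chr5:75574916-75656722, plus strand) marked the early progenitors of both libraries. Cluster 3 had 337 CPM in KO cells (323 to 351) and 285 CPM in WT cells (272 to 300), and cluster 1 had 334 CPM (321 to 346) and 329 CPM (311 to 349). These clusters overlapped in KO cells and not in WT cells. HSC/MPP-like cells as a whole had 272 CPM in KO cells and 220 CPM in WT cells, a log2 ratio of 0.31 (0.24 to 0.38). At the other end, cluster 11 of the monocyte-like cells had 7.11 CPM in KO cells and 2.35 CPM in WT cells.

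Kit passed 1.5-fold in later cells of other lineages. Erythroid-like cells had 97.5 CPM in KO cells (88.7 to 107) and 44.8 CPM in WT cells (41.5 to 48.3), a log2 ratio of 1.12 (0.95 to 1.30), where 8.18% of all genes at the minimum were at least 1.5-fold higher. Within cluster 14 alone, led by Car1 and Mt2, the values were 127 CPM in KO cells and 62.8 CPM in WT cells (1.02, interval 0.84 to 1.19). Erythroid markers of that cluster summed to 2894 CPM in KO cells and 2607 CPM in WT cells, with 4 of 10 higher, and all 10 megakaryocyte markers were higher, at 245 CPM against 141 CPM. Basophil or mast cell-like cells had 183 CPM in KO cells (163 to 206) and 107 CPM in WT cells (93.7 to 121), a log2 ratio of 0.78 (0.53 to 1.03) beside -0.10 for Phf6, and all 9 of their own markers were higher, at 22672 CPM against 16220 CPM. The part of these markers in the Kit ratios was not tested. Putting cells into classes one by one by marker score gave 0.11 for Kit in basophil or mast cell-like cells and 1.11 in erythroid-like cells. The basophil or mast cell-like class was then a larger set, with 311 KO and 406 WT cells in place of 122 and 167. Maturing neutrophil-like cells differed in the other direction, with 59.3 CPM in KO cells and 76.8 CPM in WT cells (-0.37, interval -0.52 to -0.22).

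Counted by class, the HSC/MPP-like cells had 2 receptors at least 1.5-fold higher, Csf2rb and Csf2rb2, where 3.97% of all genes were higher and 1.51% lower. Monocyte-like cells had 1, Csf2rb2 (1.57% of all genes higher, 0.9% lower), and erythroid-like cells 1, Kit (8.18% higher, 1.17% lower). Basophil or mast cell-like cells had Kit higher and Csf3r lower (8.77% higher, 5.35% lower). Neither maturing neutrophil-like nor megakaryocyte-like cells had a receptor past 1.5-fold, where 1.21% and 1.57% of all genes were higher and 2.3% and 1.39% lower. In B cell-like cells Csf2rb and Kit were higher from 10 and 14 KO UMIs against 7 and 9 WT UMIs, where 19.7% of all genes were higher and 24.3% lower.

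Cluster by cluster, both beta chain genes were past 1.5-fold upward in cluster 0, where 3.32% of all genes were higher and 1.48% lower, and in cluster 3 (5.35% higher, 2.14% lower). Csf2rb alone was higher in HSC/MPP-like cluster 8 (4.5% higher, 2.13% lower). Csf2rb2 alone was higher in cluster 1 (4.35% higher, 2.42% lower), cluster 5 (1.11% higher, 1.13% lower), cluster 7 (2.33% higher, 1.47% lower) and cluster 11 (4.56% higher, 2.88% lower). Cluster 4 had 3 receptors higher, Csf2rb2, Csf1r and Il6ra (3.8% higher, 2.46% lower), and cluster 10 had 2, Csf2rb and Csf1r (2.26% higher, 1.91% lower). Kit was higher in cluster 9 (1.56% higher, 1.27% lower) and cluster 14 (9.36% higher, 1.35% lower).

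The other calls came from small or shallow clusters in which many genes were past 1.5-fold. Cluster 16 had Csf2rb and Il3ra higher and Kit lower, with 17 and 6 KO UMIs of Il3ra and Kit against 6 and 5 WT UMIs (18.4% of all genes higher, 16.3% lower). Cluster 12 had Csf1r, Il6ra and Kit lower from 3, 3 and 1 KO UMIs against 11, 10 and 8 WT UMIs (14.6% higher, 17.3% lower). In cluster 18 Epor was higher, with 29.8 CPM in KO cells and 15.7 CPM in WT cells (0.92, interval 0.32 to 1.54), and Il6ra was lower (7.2% higher, 4.2% lower). No receptor passed 1.5-fold in cluster 6 (2% higher, 1.55% lower) or cluster 15 (2.65% higher, 2.38% lower).

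**Figure D4:**
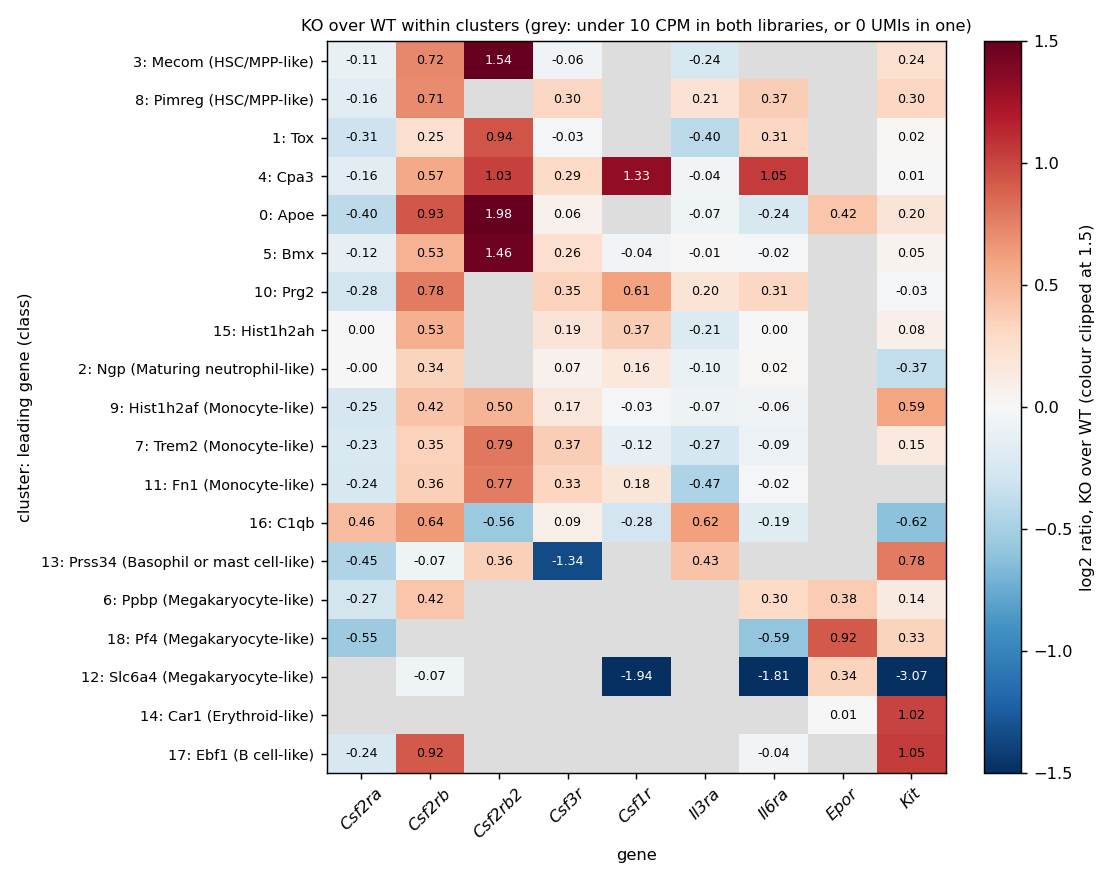
Log2 ratio of KO over WT for each receptor gene within each of the 19 clusters, red where higher and blue where lower in KO cells, with the colour clipped at 1.5. Grey cells were under 10 CPM in both libraries or had 0 UMIs in one. The Csf2rb column is red in 15 of 17 clusters and the Csf2ra column blue in 15 of 17, while Csf1r stands out in cluster 4 at 1.33.

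Per cell, the receptors were sparse. With each cell thinned to 5000 UMIs, which left out 199 KO and 242 WT cells of lower depth, 27.6% of KO cells (26.3 to 29.0) and 20.1% of WT cells (18.9 to 21.4) had a Csf2rb UMI. Unthinned, the shares were 59.8% and 51.9%. In erythroid-like cells, where no Csf2rb is looked for, the thinned shares were 1.00% and 0.763%, at median depths of 40201 KO and 57941 WT UMIs per cell before thinning. Csf2rb2 was found in 7.01% of KO cells and 4.25% of WT cells (21.6% and 12.7% unthinned). In HSC/MPP-like cells alone its thinned shares of 4.66% (3.16 to 6.58) and 3.15% (1.85 to 5.002) overlapped, so a difference per cell was not detectable there at this depth.

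Between classes, the share of cells with a UMI differed widely for several receptors. A Csf1r UMI was found in 57.8% of KO and 57.5% of WT monocyte-like cells, against 1.02% and 0.247% of megakaryocyte-like cells, at median depths of 27880.5 KO and 27911 WT UMIs for the monocyte-like and 19321.5 KO and 21821 WT UMIs for the megakaryocyte-like cells. Epor was found in 26.0% of KO and 28.6% of WT erythroid-like cells, against 0.126% and 0.470% of monocyte-like cells. Megakaryocyte-like cells also held Epor, at a mean of 0.353 UMIs per thinned KO cell and 0.294 per thinned WT cell. In erythroid-like cells these means were 0.33 and 0.317. A Kit UMI was found in 67.7% of KO (63.9 to 71.3) and 61.2% of WT (57.0 to 65.4) HSC/MPP-like cells, and in 40.0% (30.3 to 50.3) and 22.1% (17.3 to 27.7) of erythroid-like cells. The unthinned shares of Kit were 95.5% and 95.2% in HSC/MPP-like and 79.2% and 62.8% in erythroid-like cells. Csf3r was found in 37.1% of KO and 29.8% of WT monocyte-like cells, with 86.5% and 79.9% unthinned, and in 3.81% and 5.19% of megakaryocyte-like cells.

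Receptors for different lineages were read in the same cells. Among thinned monocyte-like cells, 178 of 796 KO cells (22.4%, 19.5 to 25.4) and 112 of 638 WT cells (17.6%, 14.7 to 20.7) had UMIs of both Csf1r and Csf3r. The product of the single shares, the value for genes read independently, was 21.4% in KO cells and 17.1% in WT cells, both within the intervals of the joint shares. Csf2ra and Csf2rb, which build 1 receptor, were read together in 184 KO cells (23.1%) and 112 WT cells (17.6%), beside products of 21.2% and 18.9%. Kit and Csf3r shared 135 of 644 KO (20.96%) and 98 of 539 WT (18.2%) HSC/MPP-like cells, with products of 20.2% and 17.2%. Over all cells Kit and Csf1r were read together in 3.15% of KO cells and 1.84% of WT cells, under the products of 7.21% and 4.53%. These 2 genes peaked in different clusters.

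Likeness to other genes was taken as Pearson's r of log2(CPM + 1) over 38 points, the 19 clusters in each library, which share depth and cells and allow no p-value. Among 6270 genes at 20 CPM or more, Csf1r was most like Cd68 (0.96), Nrp1 (0.94) and Mpeg1 (0.93), genes known from monocytes and macrophages. Epor was most like Samd14 (0.94), Gata1 (0.94) and Mfsd2b (0.92), Csf2ra like Grn (0.94), Soat1 (0.94) and Aoah (0.93), and Kit like Cdk6 (0.92), Spint2 (0.88) and Erg (0.87). Csf2rb was most like Abr (0.90), Tyrobp (0.90) and Trf (0.90), and Csf2rb2 like Abr (0.86), Csf2rb (0.84) and Tnfaip8l2 (0.84). The beta chain genes were thus close to each other in place. Il3ra was most like Glipr1 (0.90), Cebpa (0.89) and the kinase gene Fes (0.88), Il6ra like Actr3 (0.89), Grn (0.86) and Tpd52 (0.85), and Csf3r like Rab31 (0.89), Tnfrsf1a (0.89) and Kcnk12 (0.87).

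Over all cells, several other genes of receptor signalling were higher in the KO library. Their ratios are not given for single clusters, and the shares of the clusters differed between the libraries. Of the genes in all lists below, 6 were at least 1.5-fold higher, and 2 with clusters weighted alike. Of 24 other haematopoietic receptor genes 18 reached 10 CPM, and 4 were at least 1.5-fold higher and none lower, where 2.36% of all genes were higher and 1.41% lower. Their median log2 ratio was 0.33, beside 0.06 for all genes. Among them, Flt3, the receptor of early lymphoid and dendritic progenitors, stood at 23.1 CPM in KO cells and 12.4 CPM in WT cells (0.89), and Il4ra, the interleukin-4 alpha chain, at 18.4 CPM in KO cells and 10.1 CPM in WT cells (0.87). Another, named after its value was seen, was Il6st, the signalling partner of Il6ra, with 55.0 CPM in KO cells and 36.0 CPM in WT cells (0.61). All 21 genes for kinases, STATs and adaptors reached the minimum, and 1 was higher and none lower, with a median of 0.25, beside the same 2.36%, 1.41% and 0.06 for all genes. Jak3, a kinase bound to receptors of the interleukin-2 family, stood at 11.95 CPM in KO cells and 8.62 CPM in WT cells (0.47), and Pik3cd, a lipid kinase subunit, at 88.9 CPM in KO cells and 66.9 CPM in WT cells (0.41), both under 1.5-fold.

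Among 15 inhibitors of receptor signalling, 12 reached the minimum, with 1 higher, none lower and a median of 0.16. Of all genes 2.36% were higher and 1.41% lower, with a median of 0.06. Socs3, which blocks signals of Csf3r and Il6st, stood at 15.2 CPM in KO cells and 7.45 CPM in WT cells (1.03), and reached the minimum in KO cells only. Dok2 had a log2 ratio of -0.58 and Sh2b3 of 0.36, both under 1.5-fold. None of 10 transcription factor genes known to act on the receptor genes was past 1.5-fold in either direction (median 0.17), the widest being Mitf (0.46), Cebpb (0.40) and Runx1 (0.38). Of 11 genes for the receptors' ligands none reached 10 CPM. The ligand genes with most UMIs were Csf1, at 8.30 CPM in KO cells and 9.78 CPM in WT cells, and Flt3l, at 5.72 and 5.91 CPM, while Csf2 had 1 UMI in each library.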

How the data were processed

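Per the labels' protocols, both libraries were made with the Chromium Next GEM 3′ v3.1 kit, which tags the 3′ end of an RNA. The authors deposited matrices of UMI counts, raw whole numbers for each gene in each barcode, for 5260 KO and 5287 WT barcodes with 120408100 and 131667969 UMIs. Cell Ranger 6.0.2 made the matrices per the file headers. Version 3.0.1 and the GRCm38 build stand in the submitters' processing notes. No source used here names the annotation release, and GENCODE M21 held 32235 of the 32285 gene IDs.

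Barcodes with fewer than 500 genes (32 KO, 51 WT) or over 10% mitochondrial UMIs (314 KO, 553 WT) were left out. Scrublet scores at 0.8% of barcodes per 1000 barcodes removed 221 KO and 224 WT doublets, while Scrublet's own threshold marked 89 and 5 cells and was not used. Cells of both libraries were clustered in a single run and were not integrated (2000 variable genes, none of them a receptor of the 9, 30 principal components, 15 neighbours, Leiden resolution 1). A cluster took a class name when the class's markers had a median log2 fold of at least 1, with 3 markers in 25% of its cells and no more markers of another class among its top 10 genes. The marker lists for lymphoid progenitors, eosinophils, neutrophil progenitors, dendritic cells, macrophages and stromal or endothelial cells named no cluster, so clusters that other rules would call neutrophil progenitors stayed unnamed.

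UMIs were summed per library and population and given as CPM. Levels have exact Poisson intervals, ratios exact conditional binomial intervals and shares exact Clopper-Pearson intervals, and UMIs of 1 cell are not independent, so intervals are too narrow for differences between cells. A count of 0 over all cells allows up to 0.0272 CPM in the KO and 0.0252 CPM in the WT library, by a floor of 3 counts. All 9 receptors were named by rule, with the 3 widest ratios of each pathway list, some of which are not reported here, and the 3 most alike genes of each receptor. The receptors and lists were chosen with earlier results of these data known. With 1 library per genotype no test was run. Alternatives changed the cell filter, doublets, scaling, weighting, thresholds, clustering and classes. The ratio script was tested on simulated data. Tools were Python 3.11.15, scanpy 1.11.5, numpy 2.4.6, scipy 1.17.1, leidenalg 0.10.2, matplotlib 3.10.9, R 4.3.3 and edgeR 4.0.16 (TMM factors only).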

Additional observations from a re-analysis of the deposited data

Results flagged for a closer look

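For 3 receptors the ratio of KO over WT passed 1.5-fold upward in at least 1 cluster and downward in at least 1 other, each with an interval clear of 0. The differences between clusters were not tested, and the share of all genes that pass in both directions was not counted. In cluster 4 Csf1r reached 10 CPM in KO cells only, and in cluster 12 Csf1r and Kit reached it in WT cells only. Csf1r had a log2 ratio of 1.33 in cluster 4 (159 KO and 62 WT UMIs) and 0.61 in cluster 10 (354 and 276), but -1.94 in cluster 12, where 3 KO UMIs stood against 11 WT UMIs (interval -4.42 to -0.02). Il6ra had 1.05 in cluster 4 (192 and 91 UMIs) and -0.59 in cluster 18 (73 and 147 UMIs). Kit had 0.59 in cluster 9, 0.78 in cluster 13 and 1.02 in cluster 14, from 271, 298 and 433 KO UMIs against 148, 246 and 670 WT UMIs. In cluster 12 it had -3.07, from 1 KO UMI against 8 WT UMIs (interval -8.54 to -0.17). Other ratios past 1.5-fold had intervals that took in 0: Il6ra at -1.81 in cluster 12 (3 KO and 10 WT UMIs), and Kit at -0.62 in cluster 16 (6 and 5 UMIs) and 1.05 in cluster 17 (14 and 9 UMIs). In cluster 12, 14.6% of all genes at 10 CPM were at least 1.5-fold higher and 17.3% at least 1.5-fold lower, and all 9 monocyte markers were lower in KO cells, at 193 CPM in KO cells and 577 CPM in WT cells.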

How the results depend on the processing

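The count of receptors at least 1.5-fold higher over all cells was 2, and it was 1 with median of ratios scaling, with a mean per cell, with clusters weighted alike and with clusters at the WT mix, 0 with classes weighted alike, 4 at a lower threshold and 1 at 2-fold. The count of those lower was 1, and it was 0 with a mean per cell, with classes or clusters weighted alike, with clusters at the WT mix and at 2-fold. Over all cells, the share of genes past 1.5-fold was taken at the main setting alone (2.36% higher, 1.41% lower). The counts at other settings thus have no such share beside them. Epor turned to 0.12 with a mean per cell, 0.24 with classes weighted alike, 0.32 with clusters weighted alike and 0.18 at the WT mix, which rests on 19 clusters that gave -0.45 before the mix was changed. By construction the weighted settings and the WT mix give the compared erythroid-like cells the same weight in both libraries. A mean per cell keeps the shares of cells and counts each cell alike. It thus gives more weight to shallow cells such as cluster 12, with 3.44% of KO and 3.42% of WT cells but 0.698% and 0.618% of UMIs. Epor stood there at 195 CPM in KO cells and 154 CPM in WT cells. The part of either in the change of sign was not tested. Csf2rb kept a ratio above 0 under all 10 alternatives (0.19 to 0.68), as did Csf2rb2 (0.39 to 1.24), Csf3r (0.05 to 0.41) and Kit (0.19 to 0.47), while Csf1r (-0.09 to 0.52), Il6ra (-0.07 to 0.33), Il3ra (-0.07 to 0.15) and Csf2ra (-0.18 to 0.05) did not. Csf3r in basophil or mast cell-like cells, at -1.34, was 0.13 with classes by marker score, and the cause was not tested. That class then held 311 KO and 406 WT cells, in place of 122 and 167. In HSC/MPP-like cells Csf2rb ran from 0.60 to 0.75 and Csf2rb2 from 1.17 to 1.36. The 6 pathway genes higher became 2 with clusters weighted alike, and the 0 lower became 1 with TMM or median of ratios scaling, without cluster 12 and cluster 21 or without the top 1% of cells, and 2 with a mean per cell. The WT mix and the run without 2 clusters were chosen after seeing the data. No paired analysis was possible because each genotype has 1 library. Depth limits Csf2rb2 and Epor, with 13.9 and 8.81 CPM in KO cells, and clusters of few cells.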

Other observations

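Cluster 19, led by Gzma, Ccl5, Cox6a2 and Siglech, took the T or NK cell name by the marker rule. Its T or NK cell markers summed to 1680 CPM in KO cells and 1123 CPM in WT cells, but its dendritic cell markers to 8235 and 15970 CPM, so it is called by its number here. It held 49 KO and 54 WT cells, too few for a ratio. Its Csf2rb2 UMIs were 41 in KO cells and 16 in WT cells, 41.8% of the pair of beta chain genes in KO cells (31.9 to 52.2) and 38.1% in WT cells (23.6 to 54.4). Plasma cell-like cluster 21 held 0 KO and 53 WT cells, with 21 UMIs of Csf2rb, 20 of Il6ra and 12 of Il3ra. The smaller erythroid-like cluster 20 (21 KO and 79 WT cells, leading gene Slc4a1) had 101 CPM of Epor in KO cells and 91.0 CPM in WT cells, and 11.9 CPM of Kit in KO cells and 2.004 CPM in WT cells, from 14 and 9 UMIs.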
